A study of Mus musculus with 6 samples.

Results

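The transcription factor AP-1 was examined subunit by subunit in CD4+ T cells that were being turned into regulatory T cells (Tregs) with or without the coactivator SRC2. The genes described are 5 AP-1 subunits, Jun, Junb, Fosb, Fosl2 and Batf, together with Egr1, which makes 6 of the 2387 genes in the authors' deposited table. They were taken by symbol, but the set had been chosen from their measured difference between the genotypes, so the values below describe that difference and no test was made of it. The cells were naive CD4+ T cells of mouse spleen on the C57BL/6j background, isolated from young adult mice by negative selection with a kit for naive cells, a step meant to deplete other cell types, and cultured for 36 hours with antibodies to CD3 and CD28, TGFβ, anti–IL-4 and anti-IFNγ. There were 2 groups of 3 libraries, each library from a different mouse. The control group was Foxp3YFP-Cre, and the other was SRC2fl/fl/Foxp3YFP-Cre, in which the floxed gene is Ncoa2, the gene of SRC2. Below they are called WT and KO cells, after the sample titles. Both groups carry Cre recombinase driven from the Foxp3 locus, so only cells that have turned on Foxp3 can lose SRC2. The methods mention no sorting after the culture.

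AP-1 is a dimer of basic leucine zipper proteins. JUN proteins pair with each other or with FOS proteins, whereas BATF proteins pair with JUN proteins and often bind DNA beside IRF4 in T cells. Receptor engagement activates MAP kinases, which raise the transcription and activity of these subunits, and AP-1 then joins NFAT on the promoters of many T cell genes. Egr1 is a zinc finger factor induced by the same ERK pathway. Subunits differ in the partners they take and the genes they act on, and JunB and BATF are both known to take part in the differentiation of effector T cells and Tregs.

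Because the table gives the authors' mean counts per 1000000 (CPM) of each genotype and no value per library, no spread between mice and no depth could be given, and values stand without an error. A difference between the means can therefore not be set against the variation of the 3 mice of a group here. In addition, the table holds only genes whose P value in the authors' comparison was below 0.05, so that a gene outside it was not counted as changed or as equal. The methods also set a minimum of 10 on the total of a gene. Every gene in the table had a sum over the 6 libraries of at least 10 CPM, and the lowest of the 6 genes described here, Batf, had 178 CPM. Of the genes in the table, 69.2% had the higher mean in KO cells and 30.8% in WT cells, with a median log2 ratio of 0.33. Ncoa2 had a mean of 164 CPM in WT cells and 127 CPM in KO cells, so that 77.7% of the level was still present. Foxp3 had 82.5 CPM and 42.4 CPM, respectively. A smaller share of Foxp3-expressing cells and less RNA per cell cannot be told apart in such bulk samples.

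The promoters of the JUN paralogs are shown because these genes, which encode closely related proteins, differed in opposite directions. Sequences are RefSeq's for GRCm38.p6, which held an entry for 5 of the 6 genes, and each run below is the 250 bases before the RefSeq start of the gene, 5′ to 3′ on the gene's strand. That of Jun lies at chr4:95052223-95052472 on the minus strand and that of Junb at chr8:84978749-84978998 on the minus strand. Capitals mark GGAAA, the core of NFAT sites, and TGANNTCA, an 8-base form of the AP-1 site.
Jun: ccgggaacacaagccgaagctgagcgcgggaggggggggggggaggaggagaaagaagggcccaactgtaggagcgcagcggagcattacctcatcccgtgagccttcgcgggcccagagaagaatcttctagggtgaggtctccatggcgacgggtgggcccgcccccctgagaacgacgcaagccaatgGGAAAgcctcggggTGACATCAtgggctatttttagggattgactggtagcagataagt
Junb: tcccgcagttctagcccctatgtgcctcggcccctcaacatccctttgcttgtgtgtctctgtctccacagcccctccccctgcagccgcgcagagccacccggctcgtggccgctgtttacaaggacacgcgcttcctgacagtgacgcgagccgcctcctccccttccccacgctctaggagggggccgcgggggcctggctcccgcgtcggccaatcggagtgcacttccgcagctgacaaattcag
The Jun run held 1 match to GGAAA, from position -59 to -55 before the start, and 1 match to TGANNTCA, from -45 to -38. The Junb run held neither. Both strands were searched in windows reaching 50 bases past the start, and GGAAA was found in 61.3% of all 32851 such windows and TGANNTCA in 14.1%. A further match to TGANNTCA lay from position 3 to 10 after the start of Jun. This 8-base form was added after the promoters had been seen. The usual 7-base AP-1 site, TGANTCA, which 7.81% of windows held, was in none of the 5 windows, and neither were the cAMP response element TGACGTCA, held by 1.79%, and the CArG box bound by SRF, held by 1.63%.

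The FOS genes Fosb and Fosl2, both lower in KO cells, each held 1 match to GCGNGGGCG, the site that EGR proteins bind, in the same letters. It is shown in capitals with 10 bases on either side, for Fosb at chr7:19310077-19310105 on the minus strand and for Fosl2 at chr5:32136383-32136411 on the plus strand.
Fosb: tgacgcaagcGCGGGGGCGggtcccggag
Fosl2: ccggctgcgcGCGGGGGCGgaagggcgcg
The match lay from position -50 to -42 in Fosb and from -79 to -71 in Fosl2, and 5.55% of all windows held one. The 250-base runs of Fosb and Fosl2 were 68.8% and 64.4% G or C, beside a median of 52.4% for all promoters. The motif has only G and C besides its free letter N, and the 5.55% was not adjusted for this. Jun, Junb and Batf had no match. Batf instead held 2 matches to the NFAT core on its minus strand, from -141 to -137 and from -93 to -89. In the GENCODE M21 annotation Fosl2 starts further upstream than in RefSeq, and all 250 bases before its RefSeq start lie in an annotated exon. These matches are a description of letters, and binding was not measured here.

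Jun, the founding member of the JUN proteins, had a mean of 212 CPM in WT cells and 128 CPM in KO cells. The difference of KO from WT was thus -83.9 CPM, its log2 ratio was -0.73, and 60.4% of the control level was present. Jun has 1 exon, on chromosome 4 (GRCm38, minus strand) from 95049034 to 95052222. The antisense RNA Junos overlaps it. Whether the libraries kept the strand is not stated, so reads of Junos and Jun cannot be told apart.

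Junb, the JUN paralog that can restrain or replace Jun depending on the gene, had a mean of 465 CPM in WT cells and 638 CPM in KO cells. This was 173 CPM more, a log2 ratio of 0.46, and the opposite direction to Jun. In reads, not adjusted for length, 0.754% of the genes in the table had a higher mean CPM over both genotypes than Junb and 7.25% a higher one than Jun. Junb lies on the minus strand of chromosome 8 from 84974484 to 84978718, and its annotation overlaps Prdx2, a peroxiredoxin gene on the plus strand. Prdx2 was also in the table, with 127 CPM in WT cells and 151 CPM in KO cells, a log2 ratio of 0.25, and the part of shared reads in either value was not tested. In reads, Junb exceeded Jun by 2.20 times in WT cells and by 4.99 times in KO cells, a change of 2.27 times in the ratio. This change does not depend on gene length or on a scaling shared by all libraries of a genotype.

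Fosb, a FOS protein that needs a JUN partner to bind DNA, had a mean of 45.9 CPM in WT cells and 26.1 CPM in KO cells, a log2 ratio of -0.82. It had the largest relative reduction of the 6 genes, with 56.7% of the control level present, and was exceeded by 16.6% of the 735 lower genes in the table. Fosb lies on the minus strand of chromosome 7 from 19302696 to 19310051 and has 7 annotated transcripts. Their truncated form, ΔFosB, could not be told from the full-length form in values per gene.

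Fosl2, which encodes the FOS-related protein Fra-2, had a mean of 38.4 CPM in WT cells and 28.2 CPM in KO cells, a log2 ratio of -0.45. This was a smaller relative difference than those of Fosb and Jun, exceeded by 51.3% of the lower genes. Fosl2 lies on the plus strand of chromosome 5 from 32135801 to 32157842.

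Batf, which lacks the activation domains of FOS proteins and acts with JUN proteins and IRF4, had a mean of 25.3 CPM in WT cells and 33.9 CPM in KO cells. Its log2 ratio of 0.42 was close to the 0.46 of Junb, one of its partners. Both were ordinary in size for this table, since 48.1% of the 1652 higher genes exceeded Batf and 42.1% exceeded Junb. Relative to the median of the table, their log2 ratios were 0.092 for Batf and 0.13 for Junb. Batf lies on the plus strand of chromosome 12 from 85686669 to 85709087. Relative to Fosb it went from 0.551 to 1.30 in reads, so that Batf had fewer reads than Fosb in WT cells and more in KO cells.

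**Figure D1:**
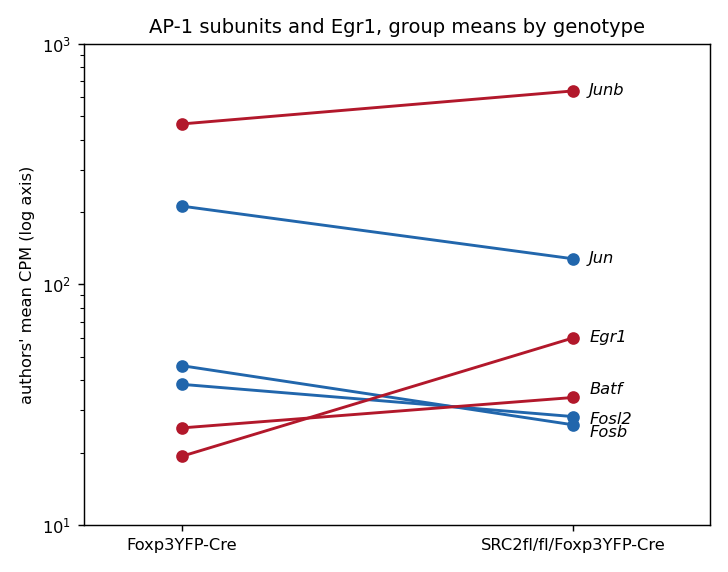
Authors' mean CPM (vertical log axis) of the 6 genes in WT (Foxp3YFP-Cre) and KO (SRC2fl/fl/Foxp3YFP-Cre) cells, 1 point per group mean with no error available and a line joining the means of a gene. Red lines (Junb, Batf, Egr1) go up and blue lines (Jun, Fosb, Fosl2) go down, and the steepest line is that of Egr1, from 19.3 CPM to 60.0 CPM. Heights of different genes also depend on their lengths.

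Egr1, which switches on genes soon after receptor signaling, differed the most. Its mean was 19.3 CPM in WT cells and 60.0 CPM in KO cells, a ratio of 3.11 and a log2 ratio of 1.64. It held rank 37 among the 1652 higher genes by ratio. Egr1 lies on the plus strand of chromosome 18 from 34859823 to 34864984 and overlaps no other annotated gene.

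At the fold of 1.4 used in the study's volcano plot, 1 of the 6 genes, Egr1, was past it on the higher side, beside 26.3% of all genes in the table. On the lower side 2 of the 6, Fosb and Jun, were past it, beside 14.1% of all genes. Junb with a ratio of 1.37 and Batf with 1.34 lay just inside the fold on the higher side, and Fosl2, whose control mean was 1.36 times the other, lay just inside it on the lower side. Scaled to the sum of the genes in the table, or centred on their median, Fosl2 was past it as well. In all, 3 of the 6 were higher and 3 were lower, beside 69.2% and 30.8% of all genes in the table. Since the genes were chosen from this very comparison, these shares are given side by side and nothing is read from them.

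**Figure D2:**
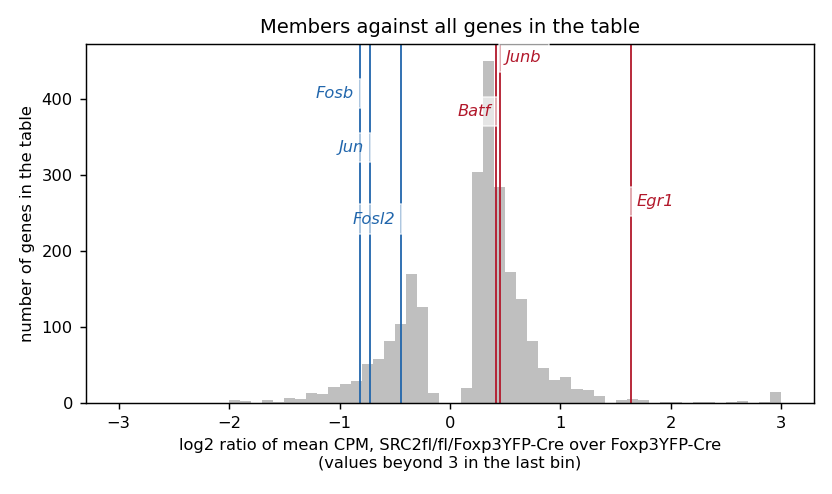
Number of genes (vertical axis) by log2 ratio of the genotype means (horizontal axis, bins of 0.1) for all 2387 genes in the table, with vertical lines at the 6 members, red if higher and blue if lower in KO cells. Genes with ratios close to 0 are missing because of the authors' P value threshold. Junb and Batf stand just past the tallest bin on the right, and Egr1 stands at 1.64, past nearly all higher genes.

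Apart from the ratios of reads given above, levels were compared between genes per length, as CPM divided by the kilobases of all annotated exons of the gene. On this scale Junb was the most abundant in both genotypes, with 202 CPM per kb in WT cells and 277 CPM per kb in KO cells. Jun followed with 66.4 and 40.1 CPM per kb, and Batf came next with 18.0 and 24.1. Fosb had 7.36 and 4.17 CPM per kb, and Fosl2 was the lowest with 3.97 and 2.91, although per kb of the longest transcript Egr1 was the lowest in WT cells. Egr1 had 4.31 CPM per kb in WT cells, close to Fosl2, and 13.4 CPM per kb in KO cells, above both FOS genes. Whether neighbors in this order differ beyond the spread between mice could not be examined.

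Added up per length, the 5 AP-1 subunits had a sum of 298 CPM per kb in WT cells and 349 CPM per kb in KO cells. On the authors' CPM scale this sum was thus not lower, although 3 of the 5 subunits were. It rose by less than the typical gene in the table, whose median log2 ratio was 0.33, so centred on that median it would be lower. Junb made up 67.9% of the sum in WT cells and 79.6% in KO cells, whereas the share of Jun was 22.3% and 11.5%. Of the 2 JUN genes alone, Junb held 75.3% and 87.4%. The FOS genes were a small part, with Fosb at 2.47% and 1.198% and Fosl2 at 1.33% and 0.836%, and Batf held 6.05% and 6.91%. Jund and Fos, which are also AP-1 subunits, were not in the table and are missing from these sums, so the shares are those among the 5 subunits and not of all AP-1 RNA.

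**Figure D3:**
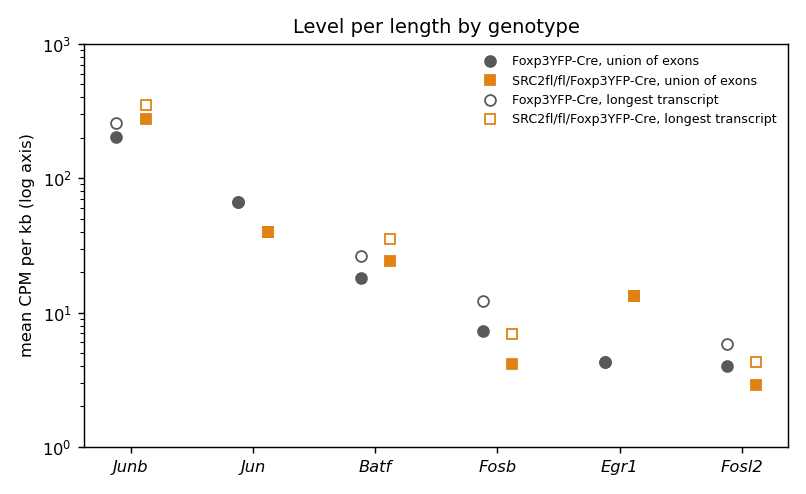
Mean CPM per kb (vertical log axis) of each of the 6 genes in WT cells (gray circles) and KO cells (orange squares), with the length taken as all annotated exons (filled) or as the longest transcript (open, hidden where both are equal). Junb is the highest in both genotypes, and Egr1 is near Fosl2 in WT cells and above Fosb and Fosl2 in KO cells.

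Among other AP-1 genes the directions were also mixed. Of a list of 12 subunits, 7 were in the table, 3 higher and 4 lower in KO cells, beside 69.2% and 30.8% of all genes. Besides the 5 above these were Atf3, a stress-induced partner of JUN proteins, with 16.7 CPM in WT cells and 8.46 CPM in KO cells, a log2 ratio of -0.98, and Fosl1, which encodes Fra-1, with 0.513 CPM and 3.25 CPM. The log2 ratio of Fosl1, 2.66, thus rests on a control mean below 1 CPM, and at that level in both groups Fosl1 would not have reached the minimum of 10. The median log2 ratio of the 7 was -0.45, the value of Fosl2, beside 0.33 for all genes in the table, but 5 of the 7 are the genes chosen from this difference, so nothing is read from it.

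In contrast to AP-1, every EGR gene in the table, Egr1 included, was higher in KO cells. Of 6 genes of the EGR family and its corepressors, 4 were in the table, with a median log2 ratio of 1.07. All 4 were higher in KO cells and past a fold of 1.4, beside 69.2% and 26.3% of all genes in the table. Egr1, 1 of these 4, was itself chosen from this difference, as were most of the AP-1 genes it is set beside. The others were Egr3, Egr2 and Nab2. The list was chosen with earlier results of these data known, and no test was made of these counts. Egr3 had 73.5 CPM in WT cells and 150 CPM in KO cells, and Egr2 had 16.3 CPM and 32.6 CPM. Both are known in T cells for restraining activation. Nab2, a corepressor that EGR proteins both bind and induce, had 21.8 CPM and 47.2 CPM. Egr4 and Nab1 were not in the table. Of 7 genes of SRF and its partners, which drive Egr1 and Fos after ERK signaling, 3 were in the table. Srf had a log2 ratio of 0.31, Elk4, a ternary complex factor, one of -0.45, and Fhl2 one of 0.95 from a control mean of 2.12 CPM.

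Upstream, the MAP kinase genes in the table had small differences. Of 36 genes of the MAP kinase cascade, 10 were in the table, 4 higher and 6 lower in KO cells. None was past a fold of 1.4 in either direction, beside 26.3% of all genes in the table on the higher side and 14.1% on the lower. Mapk8, which encodes JNK1, a kinase of Jun, had 50.2 CPM in WT cells and 40.5 CPM in KO cells, and Map2k1, which encodes the ERK kinase MEK1, had 69.7 CPM and 86.8 CPM. Larger differences were found among 20 MAP kinase phosphatases and feedback inhibitors, of which 4 were in the table. Dusp2, a phosphatase of nuclear ERK, had 75.2 CPM and 161 CPM, a log2 ratio of 1.10, and Dusp1 had one of 0.40. Dusp14 with -1.04 and Dusp10, a phosphatase of JNK and p38, with -0.56 were lower.

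Of 28 genes of T cell receptor signaling toward AP-1, 4 were in the table. Among them the small GTPase Hras had a log2 ratio of 0.48, and Malt1, a protease of the NF-κB branch, and Cd28, the costimulatory receptor, had -0.47 and -0.51. Of 12 genes of NFAT and IRF partners, 4 were in the table as well. Irf4, the partner of BATF and JUN proteins, had 824 CPM in WT cells and 577 CPM in KO cells. Irf8, which can also bind with BATF, had 458 CPM and 676 CPM, so that the 2 IRF genes went in opposite directions, as the JUN genes did. Rcan1, an inhibitor and target of calcineurin, had a log2 ratio of 0.36 and Nfatc3 one of -0.17.

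In a list of other immediate-early genes, most of those in the table were lower, unlike Egr1, while 6 shared its direction. Of 29 such genes, 20 were in the table, 6 higher and 14 lower in KO cells, with a median log2 ratio of -0.67. Past a fold of 1.4 there were 4 higher and 13 lower, beside 26.3% and 14.1% of all genes in the table. The list was chosen with earlier results of these data known, and no test was made of these counts. Lower genes included Nr4a2 with -1.39, Rgs2, a regulator of G protein signaling, with -1.14, the Krüppel-like factors Klf4 and Klf2 with -1.10 and -1.09, and Pim1, a survival kinase, with -1.05. The 6 higher genes were Ccn1 with 1.05, from a control mean of 2.48 CPM, the antiproliferative gene Btg2 with 0.96 and Nr4a1 with 0.86. The others were Ier2 with 0.61, Gadd45b with 0.44 and Nfkbia with 0.30. Atf3, described above, is also in this list.

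Genes known to be driven by NFAT and AP-1 together went both ways, with the cytokines Il2 and Tnf higher. Other cytokines of the list, such as Il4 and Ifng, were not in the table. Of 18 genes in the list, 6 were in the table, 4 higher and 2 lower in KO cells, beside 69.2% and 30.8% of all genes in the table. The median log2 ratio of the 6 was 0.95, beside 0.33 for all genes in the table, and no test was made of these counts. Il2, whose promoter is the classic site of NFAT and AP-1, had 43.4 CPM in WT cells and 132 CPM in KO cells, a log2 ratio of 1.61 close to that of Egr1. Tnf, an inflammatory cytokine, had 8.39 CPM and 42.8 CPM. Pdcd1, which encodes the inhibitory receptor PD-1, had a log2 ratio of 1.16 and Cd40lg, the ligand through which T cells help B cells, one of 0.73. The lower genes were the receptors Icos with -0.63 and Ctla4 with -0.50, both also known as Treg genes.

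**Figure D4:**
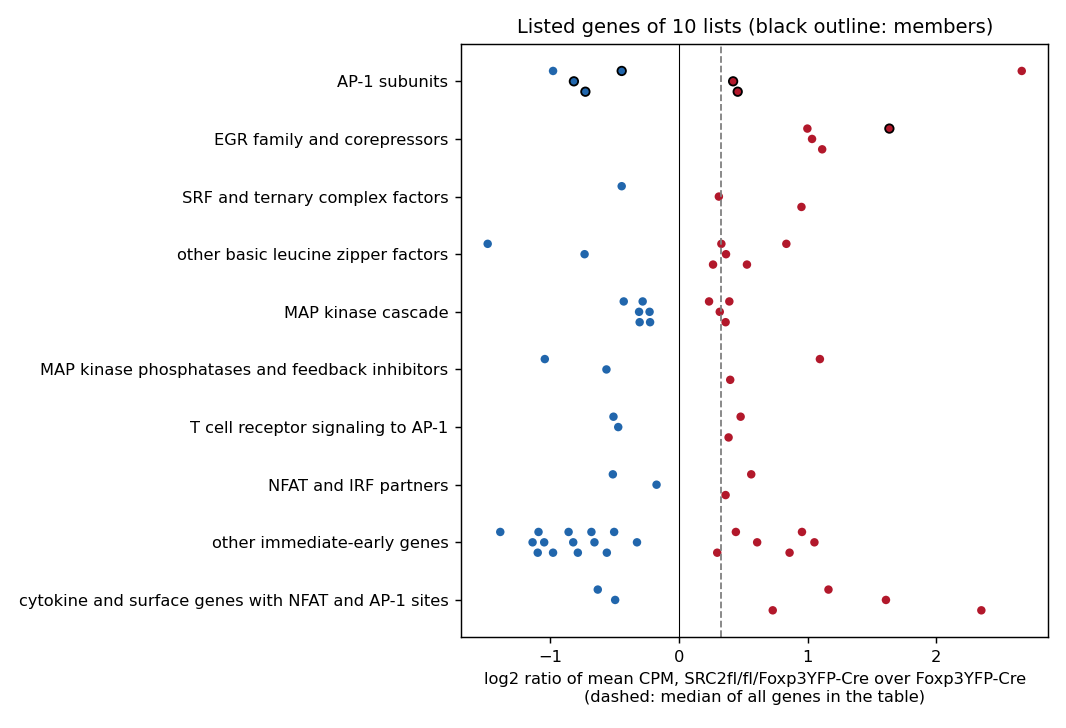
Log2 ratio of the genotype means (horizontal axis) for each gene in the table that belongs to 1 of 10 lists (rows), 1 point per gene, red if higher and blue if lower in KO cells, shifted up or down only to part the points. The 6 members have a black outline, the dashed line at 0.33 is the median of all genes in the table, and the EGR row lies wholly to the right while the AP-1 row lies on both sides.

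Some genes known from other cells were higher in KO cells alongside Egr1, Junb and Batf. Jun, Junb and Egr1 are expressed in many cell types, B cells and macrophages among them. Of 9 B cell and antigen presentation markers 4 were in the table, H2-Ab1, H2-Aa, H2-Eb1 and Cd74. All belong to MHC class II presentation, which B cells share with other antigen-presenting cells. Their summed level was 62.4 CPM in WT cells and 104 CPM in KO cells, of which Cd74 alone made 55.9 CPM and 75.3 CPM. Of 9 myeloid and dendritic cell markers 4 were in the table, with sums of 11.4 CPM and 101 CPM, of which Lyz2 made 0.310 CPM and 45.4 CPM. Of 6 mast cell and basophil markers 3 were in the table, with sums of 1.85 CPM and 22.1 CPM. At their WT level in both groups, all 3 of these mast cell genes, 1 of the 4 myeloid and 2 of the 4 presentation genes would have stayed under the minimum of 10, so they could be in the table only as higher genes. Of the 10 CD4 T cell markers only Cd28 was in the table, and Cd3e and Cd4 were not, so the labelled cell type could not be checked beyond it. Of 5 Treg markers 3 were in the table, Foxp3, Ikzf4 and Ctla4, all lower, with sums of 467 CPM and 277 CPM. The part of these cells in the values of Egr1, Junb and the other members was not tested. Nor was it tested for the other genes named above, such as Irf8 and Tnf.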

How the data were processed

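RNA of CD4+ cells after 36 hours of Treg polarization was sequenced in 3 libraries per genotype. In Partek Flow, the authors mapped reads to GRCm38 with an aligner that the methods do not name, estimated gene counts by the E/M algorithm, converted these to CPM, added 0.001, and fitted the GSA models to compare the genotypes. The deposited CPM values are the authors' means per genotype. Depth per library is unknown. Another column, named total counts in the deposited table, equals 3 times the sum of both means within a relative difference of 1e-06 in all 2387 genes, so it holds no raw counts. The authors' p-value, step-up adjusted p-value, ratio and fold change columns were not used, except that all p-values were checked to be below 0.05.

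Log2 ratios of the means (KO over WT) were computed without an offset, and their computation was tested on simulated data. No test between genotypes was run. Members and the 10 gene lists were chosen with earlier results of these data known. Up to 8 genes per list, those with the largest log2 ratios in size, could be named. Prdx2, Ncoa2 and genes said to be absent, such as Jund and Cd4, were named outside this rule for their place or role. Nr4a1, Ier2, Gadd45b, Nfkbia and Btg1, all of the immediate-early list, were also named outside it. Not every gene that the rule takes is reported here. Lengths and positions are from GENCODE M21, promoters from RefSeq on GRCm38.p6. Motifs were searched on both strands. Other offsets, scalings, folds, lengths and windows were tried. Python 3.11.15, pandas 2.3.3 and numpy 2.4.6 were used.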

Additional observations from a re-analysis of the deposited data

How the results depend on the processing

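No paired analysis was possible because a mean per genotype has no replicate number, and leaving out single libraries was not possible for the same reason. None of the 6 directions turned under any offset or scaling tried. With an offset of 1 CPM, the log2 ratios were -0.72 for Jun, -0.79 for Fosb, -0.43 for Fosl2, 0.41 for Batf and 1.59 for Egr1. With 5 CPM they were -0.71 for Jun, 0.45 for Junb, -0.71 for Fosb, -0.39 for Fosl2, 0.36 for Batf and 1.42 for Egr1. Scaled to the sum of the genes in the table, a shift of 0.09, they were -0.82 for Jun, 0.36 for Junb, -0.91 for Fosb, -0.54 for Fosl2, 0.33 for Batf and 1.54 for Egr1. Centred on the median of the genes in the table, a shift of 0.33, they were -1.06 for Jun, 0.13 for Junb, -1.15 for Fosb, -0.77 for Fosl2, 0.092 for Batf and 1.31 for Egr1, so Junb and Batf then differed little from the typical gene in the table. The table holds selected genes, which limits it as a base for scaling.

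At a fold of 1.2, 3 members were past it on the higher side and 3 on the lower, and at a fold of 2, 0 were past it on the lower side. At the fold of 1.4, 3 members instead of 2 were past it on the lower side under either scaling, the added one being Fosl2. Per kb of the longest transcript, the values in WT and KO cells were 257 and 353 CPM for Junb, 12.1 and 6.89 for Fosb, 5.88 and 4.32 for Fosl2 and 26.5 and 35.5 for Batf. Fosl2 then held rank 5 and Egr1 rank 6 in WT cells, in reverse of their order by all exons. The share of Junb among both JUN genes was then 79.5% and 89.8%, a choice made after seeing the data. The 8-base AP-1 form, also chosen after seeing the data, gave 2 matches in the Jun window against 0 for the 7-base form. Restricting the windows to the 250 bases before the start changed no count of the other motifs.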

Other observations

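Opposite directions within a gene family, as in Jun and Junb, were seen in other families of transcription factors and signaling genes in the table, and these pairs were picked after their values were seen. Nr4a1 had 137 CPM in WT cells and 249 CPM in KO cells, whereas its paralog Nr4a2 had 25.7 CPM and 9.82 CPM. Btg2 had 37.1 CPM and 71.9 CPM, whereas Btg1 had 1057 CPM and 843 CPM.

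Of 33 other basic leucine zipper factors, which can pair with some AP-1 proteins, 7 were in the table, 5 higher and 2 lower in KO cells. Nfil3, a repressor known from type 2 responses and the circadian clock, had 26.9 CPM in WT cells and 9.59 CPM in KO cells, a log2 ratio of -1.49. Bach1, a heme-regulated repressor, had a log2 ratio of -0.73, close to that of Jun. Among the higher genes, Cebpg, which pairs with Atf4 in the amino acid response, had a log2 ratio of 0.83 and Creb1, the cAMP response factor, one of 0.53. The median of the 7 was 0.33, the same as that of all genes in the table at this precision.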
